A study of Mus musculus with 6 samples.

Results

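Collagens are the main structural proteins outside cells, and this account follows the genes of their chains through 3 cell populations of the virgin mouse mammary gland. The collagen genes were taken as all genes whose array symbol has the form Col, a number, a and a number, leaving out Col17a1, with a probe well above background in the sample channel on at least 1 array. Of 40 genes with such a symbol, 39 qualified, among 25735 genes tested in all. Each was read through its probe with the highest mean raw signal. Of the 39, 37 were above background on all 6 arrays, while Col10a1 and Col19a1 were not well above background on the WT P4 array.

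RNA was hybridised to 6 Agilent 2-colour arrays, 1 for each combination of population and genotype, so no group had a replicate. P4 is the CD24+CD29hi fraction, labelled as enriched for mammary stem cells, P5 is the CD24+CD29lo fraction, labelled as enriched for luminal progenitors, and MEC is the total of mammary epithelial cells with no enrichment. Donors were virgin C57/B6 mice, either wild type (WT) or heterozygous for a knockout of ΔNp63 (het), the short p63 isoform that starts past the N-terminal transactivation domain. The labels give neither the age of the mice nor how many contributed to an array. Every sample carried Cy5 and was set against Cy3-labelled Universal Mouse Reference RNA, which pools RNA of 11 cell lines. Values below are log2(sample over reference) after background correction and loess within each array. A difference is the first group minus the second on that log2 scale.

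Fibrillar collagens such as types I, III and V form the tensile fibres of connective tissue, and fibroblasts are their textbook source. Type IV collagen builds the sheet of the basement membrane, type VII forms the anchoring fibrils that tie the basement membrane to the stroma, and types XV and XVIII, the multiplexins, sit in the basement membrane zone. FACIT collagens, among them types IX, XII, XIV and XVI, attach to the surface of fibrils or to other matrix. In the mammary gland the basal, or myoepithelial, layer rests on the basement membrane and the luminal layer lies inside it.

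The starts of 5 collagen genes on which the results turn are shown first, as the 250 bases upstream of the RefSeq start (GRCm38.p6), written 5′ to 3′ on the strand of each gene. Col4a1 and Col4a2 are divergent neighbours that encode the chains of the widespread type IV network, and their starts lie 21 bases apart with the 5′ ends overlapping. Col4a6 and Col4a5 are also divergent, with starts 1343 bases apart, and Col7a1 is shown as the gene of the anchoring fibril. Capitals mark matches, on either strand, to the CCAAT box (letters CCAAT), to the TATA box (letters TATAAA), to the GC box (letters GGGCGG) or to the p53-family half-site.
Col4a1, chr8:11312827-11313076, minus strand: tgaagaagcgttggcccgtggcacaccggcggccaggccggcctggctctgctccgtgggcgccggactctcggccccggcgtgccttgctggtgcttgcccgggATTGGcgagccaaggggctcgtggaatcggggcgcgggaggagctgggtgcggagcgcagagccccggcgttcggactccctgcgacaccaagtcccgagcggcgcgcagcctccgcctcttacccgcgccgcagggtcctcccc
Col4a2, chr8:11312555-11312804, plus strand: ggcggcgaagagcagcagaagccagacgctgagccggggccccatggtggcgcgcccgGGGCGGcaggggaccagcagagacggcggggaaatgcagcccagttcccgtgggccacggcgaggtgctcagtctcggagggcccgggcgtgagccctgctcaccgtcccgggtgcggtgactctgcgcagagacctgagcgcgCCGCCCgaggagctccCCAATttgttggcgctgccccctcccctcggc
Col4a6, chrX:141474077-141474326, minus strand: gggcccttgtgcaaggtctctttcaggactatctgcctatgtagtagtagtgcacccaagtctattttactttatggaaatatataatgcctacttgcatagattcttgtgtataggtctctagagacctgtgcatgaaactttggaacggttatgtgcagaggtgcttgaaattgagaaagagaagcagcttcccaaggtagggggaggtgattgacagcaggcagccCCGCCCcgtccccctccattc
Col4a5, chrX:141475169-141475418, plus strand: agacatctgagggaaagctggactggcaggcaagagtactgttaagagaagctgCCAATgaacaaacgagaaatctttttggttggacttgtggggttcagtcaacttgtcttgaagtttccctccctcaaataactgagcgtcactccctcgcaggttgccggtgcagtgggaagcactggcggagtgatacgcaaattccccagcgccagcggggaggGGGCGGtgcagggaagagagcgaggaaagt
Col7a1, chr9:108953336-108953585, plus strand: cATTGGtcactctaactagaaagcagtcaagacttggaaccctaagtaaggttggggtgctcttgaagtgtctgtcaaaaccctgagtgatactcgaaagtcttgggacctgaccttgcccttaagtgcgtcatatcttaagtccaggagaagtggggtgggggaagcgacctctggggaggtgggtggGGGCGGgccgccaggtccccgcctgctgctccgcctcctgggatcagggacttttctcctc

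An upstream window was available for 31 of the 39 genes. The GC box was present on either strand for 18 of them, against 32.7% of all 32851 windows. The CCAAT box was present for 11 genes (33.8% of all windows) and the TATA box for 4 (12.4%). The p53-family half-site, the short sequence recognised by p53, p63 and p73, was found for Col20a1 and Col9a2 (7.13% of all windows) and in none of the 5 windows printed. These matches describe letters in these windows only.

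The genotype was first checked on Trp63, the gene that encodes p63. Trp63 stood at 4.41 on WT P4 and 5.29 on het P4, at 0.46 on WT P5 and 0.89 on het P5, and at 2.78 on WT MEC and 2.65 on het MEC. The het arrays were thus the higher ones in both sorted populations with local backgrounds as given. When local backgrounds marked by the scanner software as outliers were replaced by the median background of that array and channel, het minus WT became -0.50 (P4), 0.35 (P5) and -1.04 (MEC). In P5 the het array was thus the higher one with either background. In P4 it was higher with backgrounds as given and lower with outlier backgrounds replaced. The part of the gene that the allele removes is not stated in the labels. On its slide, each het array came after its WT counterpart in position, so genotype and slide position cannot be told apart. Both MEC arrays lay on a slide of their own, so population and slide cannot be told apart in comparisons with MEC.

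P4 was compared with P5 first, a comparison of the basal-type fraction with the luminal-type fraction that lies within 1 slide. The largest differences were those of the FACIT chain Col14a1 (41.6-fold higher in P4), the anchoring fibril chain Col7a1 (32.9-fold), the multiplexin Col18a1 (22.8-fold) and the basement membrane chain Col4a1 (16.9-fold). In the additive limma fit with 2 arrays per population, 15 of the 39 collagen genes were higher in P4 and 1 was lower (Benjamini-Hochberg adjusted p below 0.05 over all genes). Over all genes, 4.84% were called higher and 5.37% lower. The median collagen difference was 0.82, against 0.04 over all genes. In bulk RNA of this kind, fewer cells of a type and less RNA per cell cannot be told apart.

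**Figure D1:**
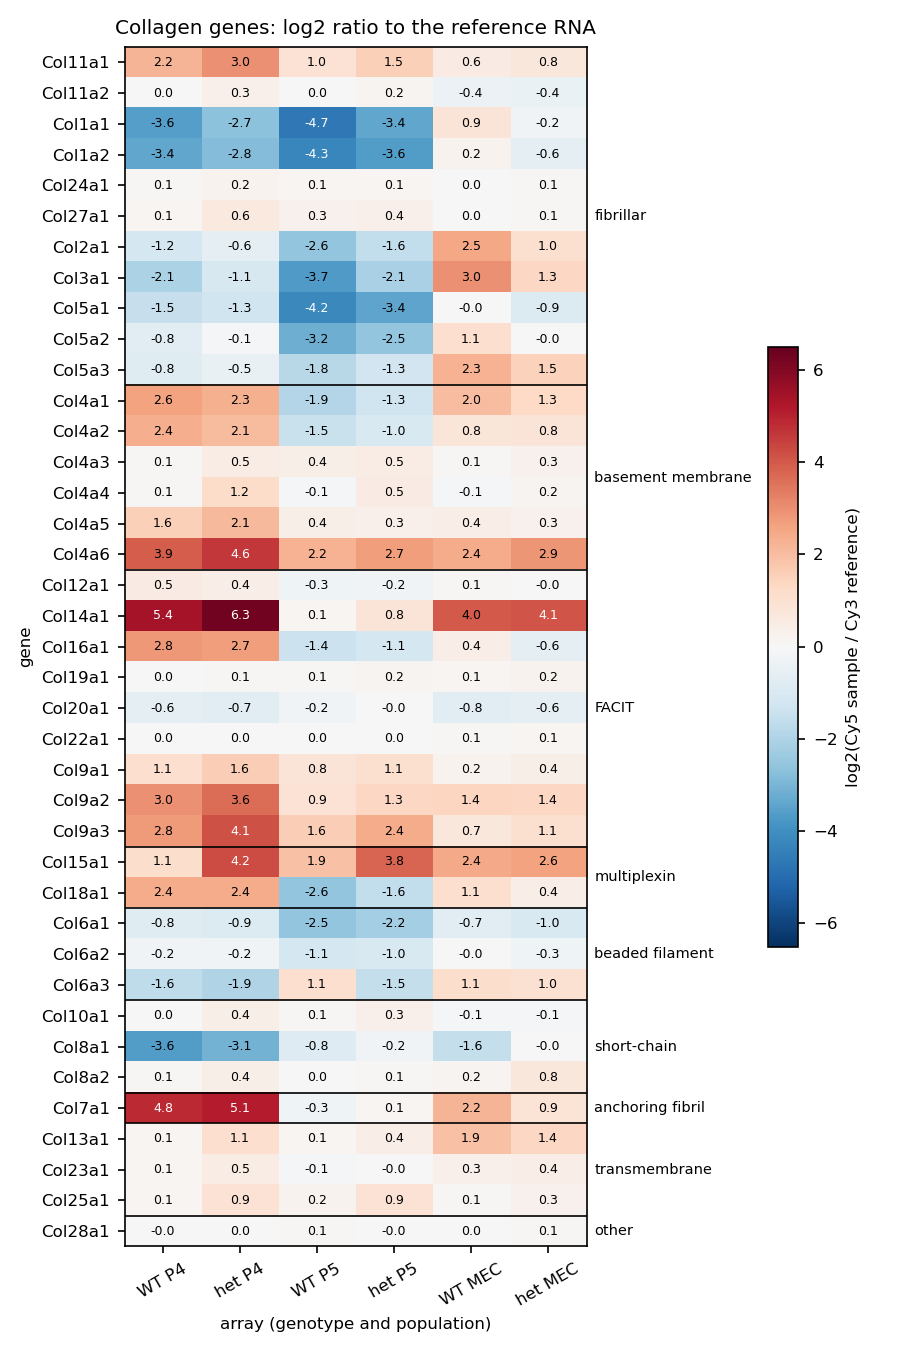
Heat map of log2(Cy5 sample over Cy3 reference) of the 39 collagen genes (rows, grouped by structural class) on the 6 arrays (columns). Col14a1, Col7a1, Col4a6 and Col9a3 are reddest on the P4 arrays, and Col1a1, Col1a2 and Col5a1 are bluest on the P5 arrays.

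Among basement membrane collagens, 4 of 6 were higher in P4. Col4a1, a chain of the widespread type IV network, stood at 2.64 (WT) and 2.31 (het) in P4, at -1.90 and -1.30 in P5, and at 2.01 and 1.31 in MEC. Its partner chain Col4a2 stood at 2.35 and 2.06 in P4, at -1.47 and -0.99 in P5, and at 0.77 and 0.82 in MEC. For both genes the P5 arrays were the lowest of the 6, and no P5 value overlapped P4 or MEC. P4 exceeded P5 by 4.08 (SE 0.34, adjusted p = 0.0112) for Col4a1 and by 3.43 (SE 0.21, adjusted p = 0.00776) for Col4a2. A further probe of each gene gave the same order, with P4 minus P5 of 2.84 for Col4a1 and 3.12 for Col4a2.

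The second divergent pair was higher in P4 by less. Col4a6 exceeded P5 by 1.79 (SE 0.12, adjusted p = 0.00821) and Col4a5 by 1.46 (SE 0.20, adjusted p = 0.0267), and their P4 arrays were the highest of the 6 in each case. The 2 other probes of Col4a6 gave P4 minus P5 of 0.44 and 0.07, so the size for that gene depends on the probe. Col4a3 and Col4a4, chains best known from the kidney filter, were not called, at -0.12 and 0.40.

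Col7a1, the chain of the anchoring fibril, was among the most different of all members. Its probe (chr9:108695073-108695132, mm7) read 4.82 and 5.09 in P4, -0.27 and 0.10 in P5, and 2.19 and 0.90 in MEC. Both P4 arrays lay above both MEC arrays, which lay above both P5 arrays. P4 exceeded P5 by 5.04 (SE 0.45, adjusted p = 0.0123) and MEC by 3.41 (SE 0.45, adjusted p = 0.0347), while P5 minus MEC was -1.63 (adjusted p = 0.14).

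The multiplexins differed from each other. Col18a1, the source of the fragment endostatin, read 2.43 and 2.39 in P4, -2.58 and -1.61 in P5, and 1.11 and 0.41 in MEC. P4 exceeded P5 by 4.51 (SE 0.41, adjusted p = 0.0125), with no overlap between populations, and its second probe gave 3.44. Col15a1 did not separate the populations, with P4 minus P5 of -0.15 (SE 0.70, adjusted p = 0.933), and is taken up with the genotypes.

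Of the 9 FACIT collagens, 5 were higher in P4. Col14a1, which binds fibrils through decorin, read 5.42 and 6.29 in P4, 0.12 and 0.83 in P5, and 4.00 and 4.10 in MEC (probe chr15:55583816-55583875, mm7). Its order was P4 above MEC above P5 with no overlap, and P4 exceeded P5 by 5.38 (SE 0.22, adjusted p = 0.00651). Col16a1, a minor collagen found near fibrils and fibrillin, read 2.81 and 2.72 in P4, -1.42 and -1.15 in P5, and 0.42 and -0.58 in MEC. It exceeded P5 by 4.05 (SE 0.33, adjusted p = 0.0109), again with no overlap. The second probe of each of these genes gave P4 minus P5 of 0.04 (Col14a1) and 0.22 (Col16a1), and each was well above background on 2 and 4 arrays.

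The type IX chains, known as the fibril-associated collagen of cartilage, were also high in P4. Col9a2 exceeded P5 by 2.16 (SE 0.20, adjusted p = 0.0125) and Col9a3 by 1.44 (SE 0.27, adjusted p = 0.0468), whereas Col9a1 was not called at 0.42 (adjusted p = 0.132). Col9a1 was called in 4 of 7 settings, with differences from 0.28 to 1.16. All 3 chains read higher on both P4 arrays than on either MEC array. Col12a1 was called at a small difference, 0.71 (SE 0.11, adjusted p = 0.0318), on a dim probe whose difference ranged from 0.63 to 2.74 over 7 settings. Col19a1, Col20a1 and Col22a1 were not called, with differences between -0.56 and 0.00. Col20a1 was called lower in 4 of 7 settings, with differences from -1.12 to -0.39.

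Type VI collagen, the beaded filament around cells, was split. Col6a1 read -0.81 and -0.88 in P4, -2.55 and -2.22 in P5, and -0.67 and -0.97 in MEC. Col6a2 read -0.24 and -0.22 in P4, -1.12 and -0.99 in P5, and -0.03 and -0.30 in MEC. P4 exceeded P5 by 1.54 (SE 0.18, adjusted p = 0.0193) for Col6a1 and by 0.82 (SE 0.14, adjusted p = 0.0394) for Col6a2, and for both genes P4 and MEC overlapped. The other chain, Col6a3, read -1.64 and -1.93 in P4, 1.08 and -1.53 in P5, and 1.13 and 1.01 in MEC, so the WT P5 array lay with MEC and the het P5 array with P4. Its P4 minus P5 was -1.56 (SE 0.67, adjusted p = 0.243).

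Col8a1, a short-chain collagen known from vessel walls and the cornea, was the only collagen gene called lower in P4 with this setting. It read -3.62 and -3.10 in P4, -0.84 and -0.25 in P5, and -1.55 and -0.05 in MEC. The P4 arrays were the lowest, whereas P5 and MEC overlapped. P4 was below P5 by a difference of -2.81 (SE 0.28, adjusted p = 0.0144), and a second probe gave -1.78. Its partner Col8a2 was not called, at 0.17. The other members outside the fibrillar class (Col10a1, Col13a1, Col23a1, Col25a1 and Col28a1) differed by -0.05 to 0.36 and none was called.

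Of the 11 fibrillar chains, 2 were called higher in P4. Col5a1, which nucleates type I fibrils, read -1.52 and -1.32 in P4, -4.17 and -3.43 in P5, and -0.04 and -0.91 in MEC. P4 exceeded P5 by 2.38 (SE 0.40, adjusted p = 0.0377), with P5 the lowest and no overlap. A second probe of Col5a1 gave 0.17 with outlier backgrounds replaced and was not called. Col11a1, a minor chain of cartilage fibrils, exceeded P5 by 1.33 (SE 0.17, adjusted p = 0.0226). A second probe of Col11a1, well above background on 5 arrays, gave 0.10 and was not called. Col5a2 had a difference of 2.45 (SE 0.49, adjusted p = 0.0524) and missed the threshold here, but was called in 6 of 7 settings. The chains of types I and III did not pass, with P4 minus P5 of 0.89 (Col1a1), 0.86 (Col1a2) and 1.33 (Col3a1) and adjusted p of 0.303 to 0.476.

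**Figure D2:**
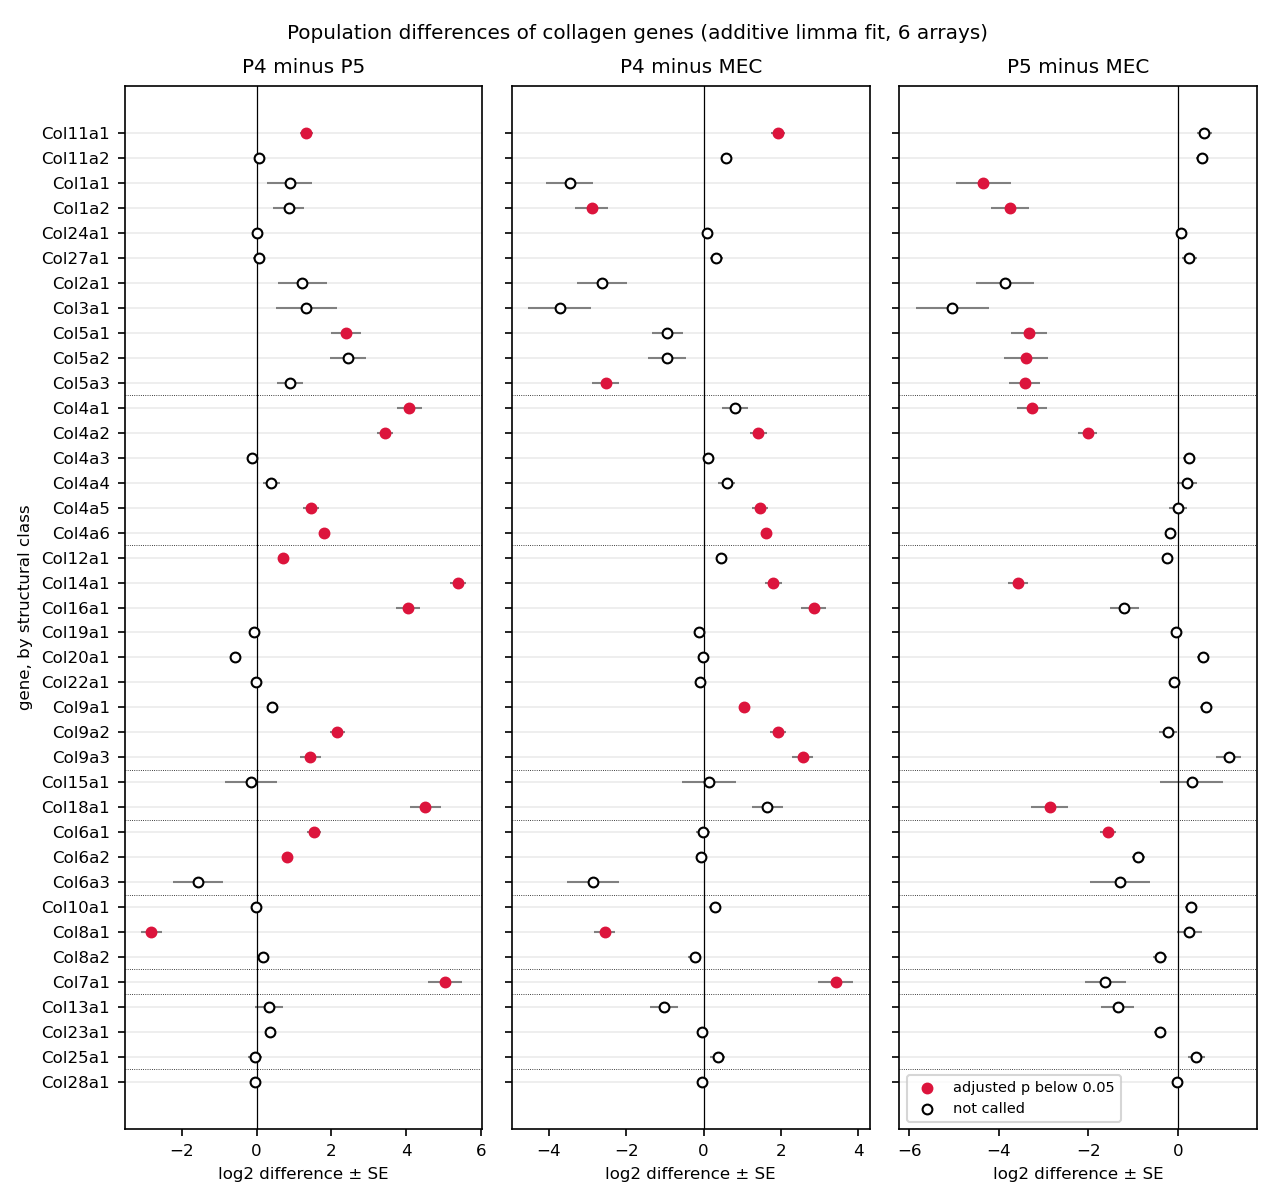
Log2 differences between populations (horizontal axes, bars show SE of the additive limma fit on 6 arrays) for each collagen gene. Filled points passed an adjusted p of 0.05. In P4 minus P5 the filled points lie to the right except Col8a1, and in P5 minus MEC all 10 lie to the left.

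With outlier local backgrounds replaced, 16 collagen genes were called higher and 2 lower in P4, where 7.36% and 7.28% of all genes were. These calls rest on 2 arrays per population. Dropping WT P4, het P4, WT P5 or het P5, each in turn, left 0 calls. The P4 and P5 arrays alone gave 22 calls, 21 higher and 1 lower, where 4686 of all genes were called against 2627 with all 6 arrays. The fits with a sorted array dropped called 0 of all genes. Over 7 settings of background, dye normalization and channel, P4 minus P5 stayed called for Col14a1, Col7a1, Col18a1, Col4a1, Col4a2, Col16a1, Col5a1, Col4a5, Col4a6, Col9a2, Col9a3, Col11a1 and Col8a1.

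Cell type markers moved with these differences. All 9 basal or myoepithelial markers were higher in P4 (4.84% of all genes were) and 10 of 11 luminal markers were lower (5.37% of all genes), which matches the sort labels. Over the 12 fibroblast markers the mean log2 ratio was -0.42 (WT) and -0.14 (het) in P4 against -1.34 and -0.85 in P5, and 2 of 12 were called higher in P4. The 6 pericyte markers averaged -0.01 and 0.60 in P4 against -0.93 and -0.04 in P5, with none called. All 12 fibroblast markers were above background on every array, and the part of other cell types in the collagen differences was not tested.

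The sorted populations were next set against the total epithelial preparation. The fibrillar chains of connective tissue were far lower in P5 than in MEC: the fitted difference was 20.3-fold for Col1a1 and 13.5-fold for Col1a2. In P5 minus MEC, 10 of 39 collagen genes were called lower and 0 higher, against 3.03% lower and 0.936% higher over all genes. The 10 were 5 fibrillar chains (Col1a1, Col1a2, Col5a1, Col5a2 and Col5a3), Col4a1, Col4a2, Col14a1, Col18a1 and Col6a1. P4 minus P5 and P5 minus MEC share the P5 arrays, so a low P5 value enters both. The median collagen difference was -0.26, against 0.02 over all genes.

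Col1a1, the major chain of type I collagen, read -3.59 and -2.68 in P4, -4.66 and -3.39 in P5, and 0.86 and -0.21 in MEC. P5 minus MEC was -4.35 (SE 0.61, adjusted p = 0.0422). Col1a2, the other chain of type I collagen, read -3.38 and -2.81 in P4, -4.26 and -3.65 in P5, and 0.24 and -0.64 in MEC. Both sorted populations lay below MEC with no overlap for both genes, and P5 minus MEC for Col1a2 was -3.75 (SE 0.42, adjusted p = 0.0286). A second probe of Col1a1 gave -2.10 and a dimmer one -0.22.

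Col3a1, the type III chain of pliable connective tissue, had the largest difference but missed the threshold. It read -2.07 and -1.06 in P4, -3.67 and -2.12 in P5, and 2.97 and 1.33 in MEC. Both MEC arrays lay above all 4 sorted arrays, but they were themselves 1.64 apart. P5 minus MEC was -5.04 (SE 0.82, adjusted p = 0.0542), and it was called in 5 of 7 settings. With outlier backgrounds replaced, the other probes of Col3a1 gave -0.17 and 0.29 and were not called. Type V chains, which co-assemble with type I, were called at -3.32 (Col5a1, SE 0.40, adjusted p = 0.0323), -3.40 (Col5a2, SE 0.49, adjusted p = 0.0449) and -3.42 (Col5a3, SE 0.35, adjusted p = 0.0247). With outlier backgrounds replaced, a second probe gave -0.57 for Col5a1 and 0.03 for Col5a3, and neither was called. Col5a2 read -0.75 and -0.10 in P4, -3.19 and -2.55 in P5, and 1.07 and -0.02 in MEC, so its het MEC and het P4 arrays lay close together.

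The basement membrane chains were likewise lower in P5 than in MEC, by -3.26 for Col4a1 (SE 0.34, adjusted p = 0.0255) and -2.02 for Col4a2 (SE 0.21, adjusted p = 0.026). Col14a1 was lower by a difference of -3.57 (SE 0.22, adjusted p = 0.016), Col18a1 of -2.86 (SE 0.41, adjusted p = 0.045) and Col6a1 of -1.57 (SE 0.18, adjusted p = 0.0305). Col4a5 and Col4a6 were not called there, at 0.00 and -0.18. These 2 chains were thus near the MEC level in P5, unlike Col4a1 and Col4a2. Col9a3 had the highest P5 minus MEC of all members, 1.13 (SE 0.27, adjusted p = 0.108), and was not called.

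P4 minus MEC ran both ways. In that comparison 10 collagen genes were higher in P4 (2.6% of all genes were) and 3 were lower (3.98% of all genes). The 10 were Col7a1 (3.41), Col16a1 (2.85), Col9a3 (2.56), Col9a2 (1.92), Col11a1 (1.92), Col14a1 (1.80), Col4a6 (1.61), Col4a5 (1.46), Col4a2 (1.41) and Col9a1 (1.04). The 3 lower genes were Col1a2 (-2.89, SE 0.42, adjusted p = 0.0388), Col8a1 (-2.56, SE 0.28, adjusted p = 0.0285) and Col5a3 (-2.52, SE 0.35, adjusted p = 0.0361). Col3a1 at -3.71 (adjusted p = 0.0761), Col1a1 at -3.46 (adjusted p = 0.0505) and Col6a3 at -2.86 (adjusted p = 0.085) missed the threshold at differences of that order. Of 7 settings, 4 called Col3a1, 6 called Col1a1 and 6 called Col6a3. Col14a1 was called in 4 of 7 settings, with differences from 0.70 to 2.19. A second probe of Col5a3 gave -0.10 with outlier backgrounds replaced and was not called. The second probe of Col11a1 gave 0.04 with backgrounds as given and was not called either. The median over the collagen genes was 0.11, against 0.03 over all genes. With median centring in place of loess, which moved the median of all genes to -0.20, the split became 6 higher and 11 lower. Of all genes, 7132 were then called, against 1692 with loess.

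Both comparisons with MEC had 0 calls on dropping WT P4, het P4, WT P5 or het P5, each in turn. Those fits called 0 of all genes as well. In P4 minus MEC, 11 were higher and 7 lower without WT MEC (4181 of all genes called), and 7 higher and 9 lower without het MEC (1254 called), so the balance of directions turned on that array. In P5 minus MEC, 1 was higher and 12 lower without WT MEC (1578 of all genes called), and 0 higher and 16 lower without het MEC (2061 called). With outlier backgrounds replaced, 11 were higher and 6 lower in P4 minus MEC (9.11% and 8.17% of all genes), and 0 higher and 13 lower in P5 minus MEC (2% and 4.1%). The 13 include Col2a1, whose probes disagree. For P5 minus MEC, median centring gave 24 calls, 22 of them lower, with the median of all genes at -0.31 and 8415 of all genes called, against 1021 with loess.

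**Figure D3:**
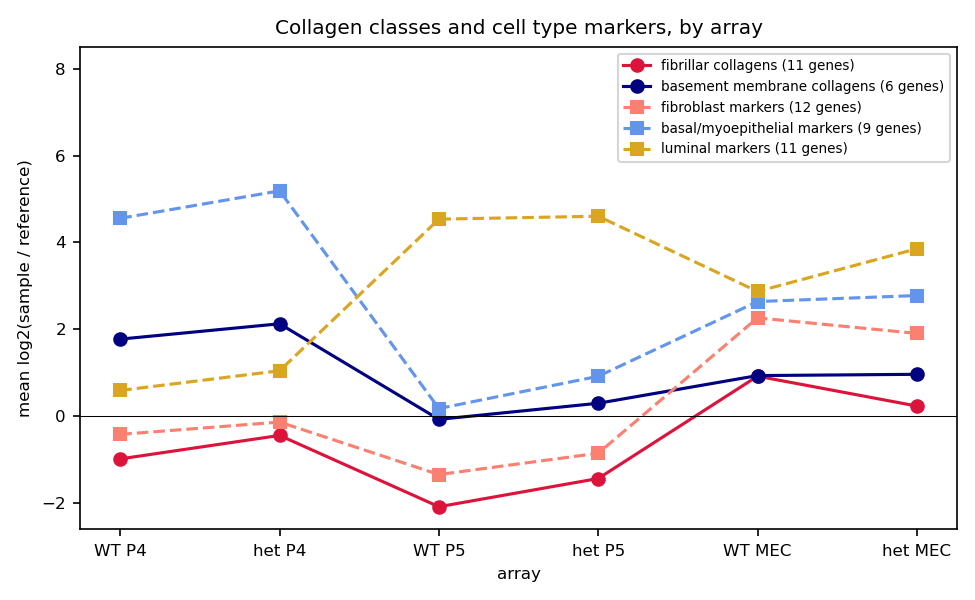
Mean log2(sample over reference) per array for fibrillar and basement membrane collagens (solid lines) and for 3 lists of cell type markers without collagens (dashed lines). Fibrillar collagens and fibroblast markers are highest on both MEC arrays, and basement membrane collagens and basal markers are highest on both P4 arrays. The fibrillar mean includes Col2a1, whose probes disagree.

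Markers of other cell types differed between the sorted arrays and MEC as well. The mean of the 12 fibroblast markers was 2.26 (WT) and 1.90 (het) in MEC, against -1.34 to -0.14 on the 4 sorted arrays, with 9 of 12 called lower in P4 and 10 of 12 lower in P5. The 10 endothelial markers averaged 2.36 and 2.96 in MEC against 0.46 to 1.06 on the sorted arrays, with 8 and 7 called lower. The 6 pericyte markers had 2 and 4 called lower and the 7 adipocyte markers 3 and 3. Of the 8 immune markers, 0 were called lower in P4 and 1 in P5. Of the 5 Schwann cell markers, 0 were called lower in either and 1 was higher in P4. Among all genes, 3.98% were called lower in P4 than in MEC, 3.03% lower in P5 and 2.6% higher in P4. The mean of the 11 fibrillar collagens was 0.92 and 0.23 in MEC, -0.98 and -0.44 in P4, and -2.09 and -1.44 in P5. The MEC arrays thus carried more of the markers of fibroblasts, endothelium, pericytes and adipocytes, and the part of those cells in the collagen differences was not tested.

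By the mean of its 2 arrays, P4 was the highest population for 17 collagen genes, MEC for 16 and P5 for 6. Over all genes, P4 was highest for 42.1%, MEC for 27% and P5 for 30.9%.

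The genotypes were then compared within each population, 1 array against 1 and so without a test. A difference of 1 on the log2 scale (2-fold) was used to count genes, and the technical SD of a difference between 2 arrays, from 245 probes printed 10 times each, was 0.142 for a probe spotted once. That SD leaves out the spread between mice. Of the 6 arrays, WT P4 had the lowest share of spots well above background in Cy5, 74.3%, against 83.4% on het P4. Its highest local background was 4501.5 in Cy5 and 30168 in Cy3, against 1056 and 1125 on het P4. The part of these in the genotype differences was not tested. Averaged over the 3 populations in the additive limma fit, 0 of the 39 collagen genes passed an adjusted p of 0.05 between het and WT, as did 0% of all genes.

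In P4, 4 collagen genes were at least 2-fold higher in het and none was lower, where 5.7% of all genes were higher and 0.124% lower. In P5, 3 were higher and 1 lower (2.46% and 0.544% of all genes). In MEC, 1 was higher and 5 were lower (1.97% and 0.692% of all genes), and the lower ones include Col2a1, whose probes disagree. With outlier backgrounds replaced there were 2 higher and 1 lower in P4 (3.43% and 0.479% of all genes), 5 and 1 in P5 (2.21% and 0.898%), and 1 and 7 in MEC (1.16% and 1.02%). Over the collagen genes the median was 0.37 for P4 as for P5, and -0.03 for MEC, against 0.10, 0.07 and 0.04 over all genes. With outlier backgrounds replaced, the collagen medians were 0.11, 0.37 and -0.23, against 0.08, 0.07 and 0.01 over all genes. Median centring gave a collagen median of -0.65 in P4, where 9004 of all genes were past 2-fold, against 1497 with loess.

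Col15a1, a basement membrane zone collagen that links it to fibrils, differed most in P4. It read 1.15 on WT P4 and 4.23 on het P4, 1.89 on WT P5 and 3.79 on het P5, and 2.45 on WT MEC and 2.63 on het MEC. Het minus WT was thus 3.08 (P4), 1.91 (P5) and 0.18 (MEC). With outlier local backgrounds replaced, these became 1.63, 1.37 and -0.99, since WT P4 rose to 3.01 and WT MEC to 3.63. The difference stayed at least 2-fold in both sorted populations over 7 settings, from 1.55 to 3.73 in P4 and from 1.18 to 2.94 in P5. A second probe of Col15a1, well above background on 2 arrays, gave -0.05, 0.27 and 0.03.

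The other genes past 2-fold in P4 depended on the processing. Col9a3 read 2.75 and 4.15 in P4, 1.60 and 2.42 in P5, and 0.72 and 1.05 in MEC. Its P4 difference of 1.39 became 0.01 with outlier backgrounds replaced, so the size of that difference rests on the background. Col4a4 was higher by 1.14 and stayed at 1.05, and a second probe of that gene gave 1.38. It read 0.07 on WT P4, 1.20 on het P4, -0.07 on WT P5, 0.55 on het P5, -0.13 on WT MEC and 0.20 on het MEC, so the het array was the higher one in each population. Col13a1, a transmembrane collagen, read 0.14 and 1.09 in P4, 0.12 and 0.45 in P5, and 1.90 and 1.37 in MEC, and its P4 difference of 0.95 became 0.78. Under median centring, where the median of all genes in the averaged genotype comparison was -0.18 (0.06 with loess), het minus WT in P4 turned to -0.38 for Col4a4 and -0.65 for Col3a1.

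Col6a3 set the lowest value in P5. It read 1.08 on WT P5 and -1.53 on het P5, a difference of -2.61, and ranged from -3.44 to -2.49 over 7 settings. The same probe differed by -0.29 in P4 and -0.12 in MEC. Its partner chains Col6a1 and Col6a2 differed by 0.33 and 0.13 in P5. The 2 other probes of Col6a3 gave 0.22 and 0.13 in P5 and were above background on 5 and 4 arrays.

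The chains of types I, III and V read higher on the sorted het arrays and lower on the het MEC array than on the WT ones. Het minus WT of Col3a1 was 1.01 (P4), 1.55 (P5) and -1.64 (MEC), and that of Col1a1 was 0.91, 1.27 and -1.07. Col1a2 differed by 0.58, 0.62 and -0.88, Col5a1 by 0.20, 0.74 and -0.87, Col5a2 by 0.65, 0.65 and -1.09, and Col5a3 by 0.32, 0.53 and -0.76. All 6 chains thus had a positive sign in P4 and P5 and a negative one in MEC, also with outlier backgrounds replaced. These signs depended on the setting: over 7 settings the lowest P4 value was below 0 for all 6 chains, from -1.38 (Col5a1) to -0.65 (Col3a1), with Col5a3 at -0.99. The lowest P5 value was below 0 for Col1a2 (-0.26), Col5a3 (-0.20), Col5a2 (-0.13) and Col5a1 (-0.10), and above 0 for Col1a1 and Col3a1. The highest MEC value was below 0 for all 6. The fibroblast markers had a median het minus WT of 0.33 (P4), 0.48 (P5) and -0.28 (MEC), and their part in the collagen differences was not tested.

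Col7a1 was lower in het MEC by a difference of -1.29 while P4 and P5 differed by 0.27 and 0.37, and over 7 settings the MEC value ranged from -2.03 to -1.29. Col8a1 was higher in het MEC by 1.51, with 0.52 in P4 and 0.59 in P5, and its second probe gave 1.07 in MEC. Over 7 settings its MEC value ranged from 0.70 to 1.51 and was at least 2-fold in 6. These went with changes of cell type markers in MEC: the luminal list had a median het minus WT of 1.15 there, 0.46 with outlier backgrounds replaced. The basal list had 0.21, or -0.22 with backgrounds replaced. Their part in the collagen differences was not tested.

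**Figure D4:**
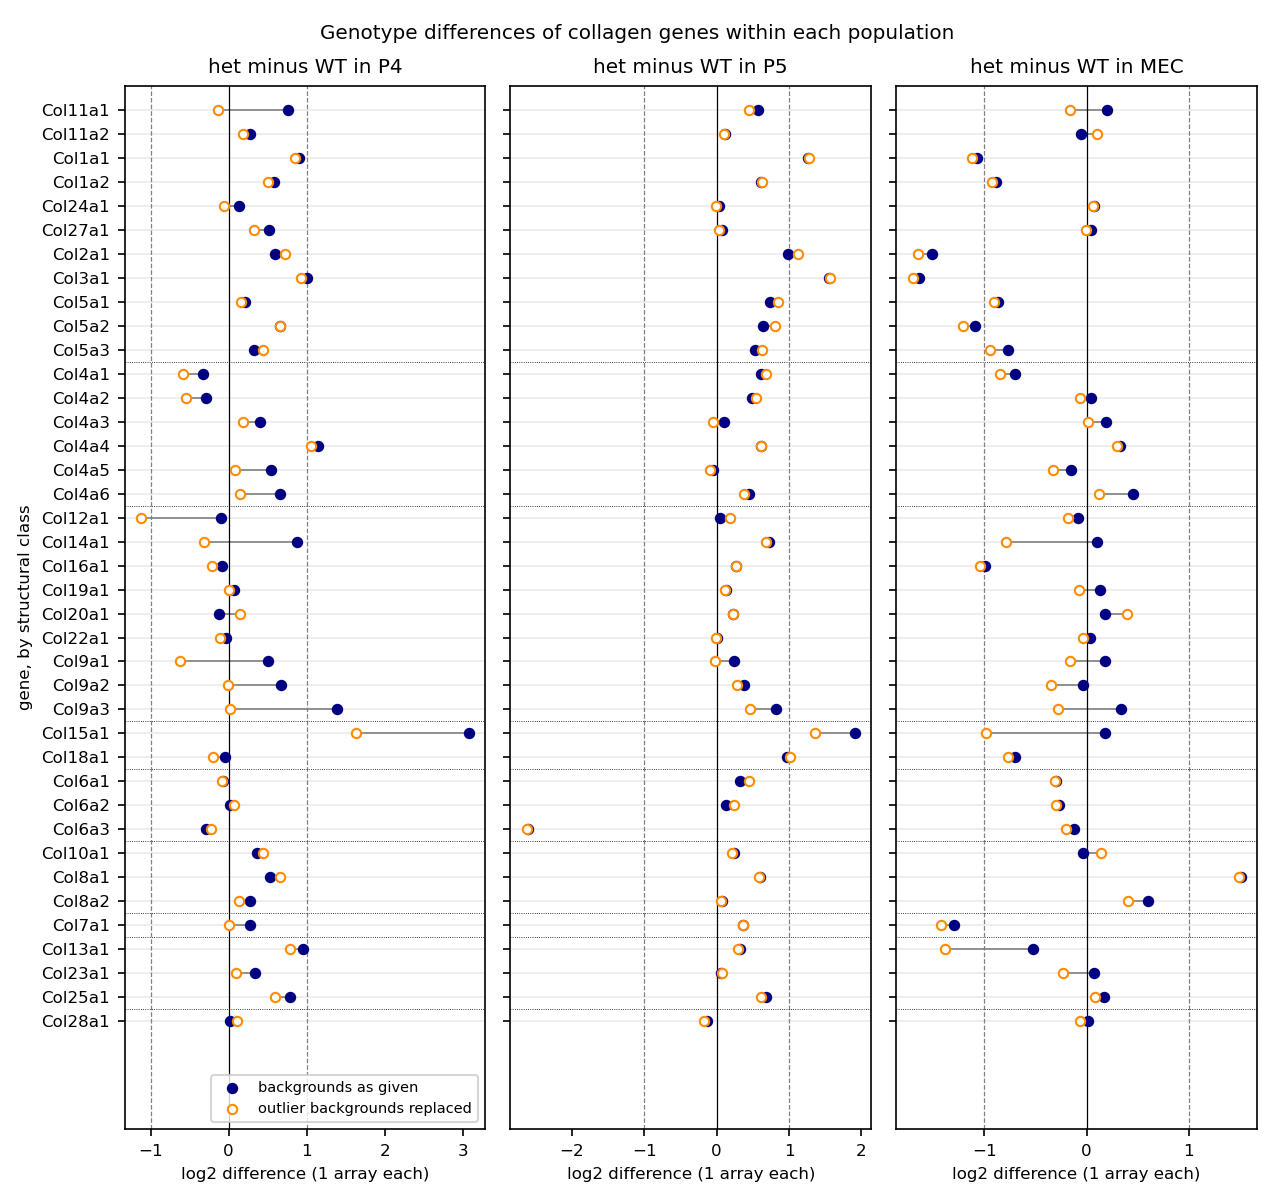
Het minus WT in log2 units (horizontal axes, 1 array against 1) for each collagen gene in P4, P5 and MEC. Filled points use local backgrounds as given, open points have outlier backgrounds replaced, and dashed lines mark 2-fold. Col15a1 moves left in P4 from 3.08 to 1.63, while Col6a3 stays near -2.61 in P5.

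Col2a1, the type II chain of cartilage, is listed among the fibrillar genes but gave opposite readings from overlapping probes, whose sequences are shown because the result for the gene turns on which is read. Capitals mark the 40 bases that both 60-base probes share, on chromosome 15 of mm7.
Col2a1 upstream probe, chr15:97979257-97979316: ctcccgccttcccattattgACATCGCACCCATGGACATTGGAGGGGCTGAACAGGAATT
Col2a1 downstream probe, chr15:97979237-97979296: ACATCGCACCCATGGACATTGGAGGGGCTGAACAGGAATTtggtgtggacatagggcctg

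The downstream probe, used by the rule, read -1.15 and -0.56 in P4, -2.58 and -1.59 in P5, and 2.53 and 1.02 in MEC. The upstream probe read 0.69 and 3.24 in P4, 0.90 and 3.15 in P5, and -0.41 and 0.22 in MEC. MEC was thus highest on one probe and lowest on the other. P5 minus MEC was -3.86 (adjusted p = 0.0575, limma) on the downstream probe and 2.12 on the upstream one, and neither passed. With outlier backgrounds replaced both passed in opposite directions, at -4.00 (adjusted p = 0.0342) and 2.18 (adjusted p = 0.0446). Het minus WT in MEC was -1.51 on the downstream probe and 0.63 on the upstream one, while in P4 the values were 0.59 and 2.55. Replacing outlier backgrounds left the upstream probe at 2.28, 2.17 and 0.67 in P4, P5 and MEC. No direction is given for Col2a1 here, although its downstream probe enters the counts, medians and fibrillar means above.

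**Figure D5:**
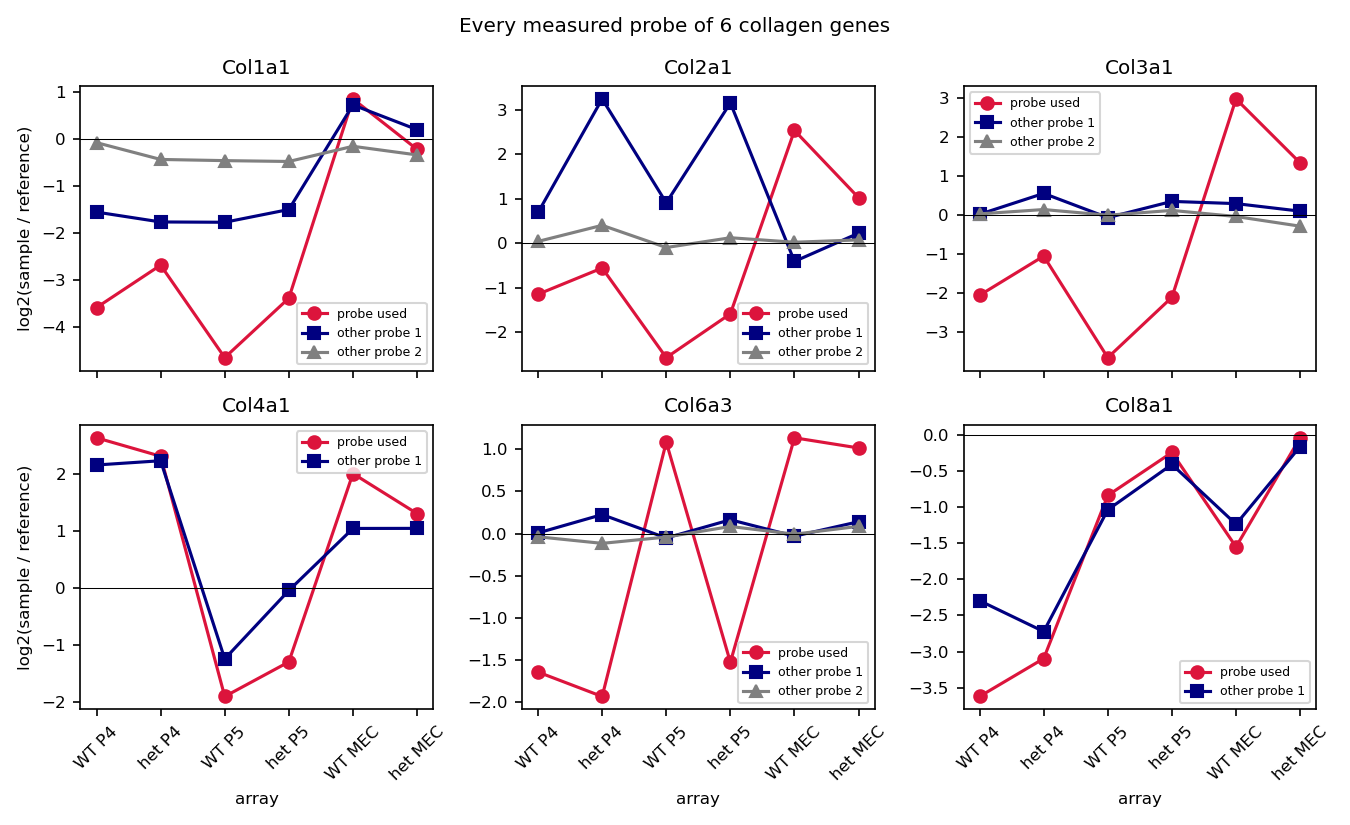
Log2(sample over reference) on the 6 arrays for every measured probe of 6 collagen genes, with the probe chosen by the rule in red. The probes of Col4a1 and of Col8a1 run together, those of Col2a1 run in opposite directions, and the further probes of Col3a1 and Col6a3 stay near 0.

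Of the 39 genes, 27 had at least 2 probes that passed the filter, 75 probes in all. Dim probes give ratios near 0 on this scale because 50 is added to both channels, so a flat second probe does not show that the gene is flat.

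Genes that make, modify and bind collagen were read from lists of synthesis and processing genes, receptors and collagen-binding proteoglycans. Of 29 measured synthesis and processing genes, 11 were called higher in P4 than in P5 and 0 lower, beside the 4.84% and 5.37% of all genes. Their median difference was 0.61, against 0.04 over all genes. In P4 minus MEC 0 were higher and 4 lower (2.6% and 3.98% of all genes). In P5 minus MEC 0 were higher and 7 lower (0.936% and 3.03% of all genes).

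The leading ones were Sparc, a collagen-binding matrix protein, and Serpinh1, the collagen chaperone HSP47. Sparc read 0.81 and 1.08 in P4, -4.00 and -2.81 in P5, and 0.75 and 0.25 in MEC, with P4 minus P5 of 4.35 (SE 0.41, adjusted p = 0.0133). Serpinh1 read 2.14 and 2.28 in P4, -1.86 and -0.92 in P5, and 1.17 and -0.05 in MEC, with 3.60 (SE 0.53, adjusted p = 0.0288). Both thus had P5 lowest with no overlap, as Col4a1 and Col18a1 had. Adamts2, which removes the N-terminal propeptide of fibrillar collagens, was higher by 2.82, and Fkbp10, a prolyl isomerase of the secretory pathway, by 2.11. Hydroxylases of proline and lysine were among the 11, with P4ha1 at 1.37 and Plod2 at 1.53, while P4ha2 (-0.39), Plod1 (-0.23) and Plod3 (-0.08) were not called.

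The genes lower in P4 than in MEC were the procollagen enhancers Pcolce (-1.39) and Pcolce2 (-3.24) and the cross-linking oxidases Loxl1 (-2.11) and Loxl2 (-1.84), and these 4 were also lower in P5. The oxidase Lox itself was not called, at -0.68 and -1.71 in P4 and P5 minus MEC.

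Of 10 collagen receptors, 2 were higher in P4 than in P5, beside 4.84% of all genes. Itgb1 encodes CD29, on which the fractions were sorted, so its difference of 1.30 is no finding. Itga11, a receptor subunit for fibrillar collagen, was higher by 0.95 (SE 0.11, adjusted p = 0.0178) and stood lower in P4 than in MEC by a difference of -1.73. The receptor kinase Ddr2 was lower in P4 (-1.76) and in P5 (-2.92) than in MEC, whereas Ddr1, its epithelial relative, read 1.64 to 2.50 on the 6 arrays and was not called in these comparisons.

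Of 6 collagen-binding proteoglycans, 4 were higher in P4 than in P5 (4.84% of all genes were): Prelp (2.53), Fmod (2.29), Dcn (2.16) and Bgn (1.34). Prelp and Bgn were higher in P4 than in MEC as well, and Dcn and Lum, which are also on the fibroblast list, were lower in P4 by -3.86 and -3.87. None of the genes on these 3 lists passed in the averaged genotype comparison.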

How the data were processed

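The 6 arrays were scanned by the authors with Agilent Feature Extraction 9.5.3.1, per the file headers and the submitters' processing notes. The deposited scanner files give raw intensity, not normalized, as a mean per spot with a median for the background around it. The log10 ratio deposited beside it (Cy5 over Cy3) had been background-subtracted and dye-normalized by the scanner software. The authors' series table holds log2 values, whose scale and direction followed the scanner ratios (correlation across probes 0.988 to 0.999), and any centring of it is not stated.

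Here mean signals and backgrounds entered normexp with an offset of 50 and loess within each array (R 4.3.3, limma 3.58.1). Control spots and outlier spots (74 to 236 per array) had weight 0, and spots of a probe were averaged. Between 74.3% (WT P4) and 89.8% (het MEC) of non-control spots were well above background in Cy5 on an array, and the number of arrays limits the precision. The additive fit of population and genotype on 6 arrays left 2 residual degrees of freedom, with lmFit and eBayes and Benjamini-Hochberg adjustment over 25735 genes. The p-values measure the spread between these arrays, which holds the interaction of population and genotype as well as noise. The fit was tested on simulated data. Gene symbols are those of the array, and for 32 of 39 members the array's accession matched a RefSeq transcript of the same symbol. Probe positions are on mm7 per the file headers. No mm7 annotation was used here, so exons and UTRs are not given. Upstream windows come from RefSeq on GRCm38.p6.

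The members and lists were chosen with earlier results of these data known. Given on every array were the 8 largest called differences in P4 minus P5, the 5 largest in each other comparison and 13 major chains; Sparc and Serpinh1 were shown in full after their values were seen. Alternatives covered the local background, the offset, the scanner's ratios, median centring, the authors' table, Cy5 alone, the filter, the probe rule, each array left out, P4 and P5 alone, and no genotype term. Reading each probe on its own was added after seeing the data. Figures were drawn with matplotlib.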

Additional observations from a re-analysis of the deposited data

Results flagged for a closer look

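Het minus WT of 2 fibrillar chains had opposite signs in different populations, each by at least 2-fold. Col3a1 was higher in het by 1.01 in P4 and 1.55 in P5 and lower by a difference of -1.64 in MEC. Col1a1 was higher in het by 1.27 in P5 and lower by a difference of -1.07 in MEC. With 1 array per group these differences between populations were not tested. The 2 other probes of Col1a1 gave 0.27 and -0.02 in P5, and -0.53 and -0.18 in MEC. With outlier backgrounds replaced, the other probes of Col3a1 gave 0.58 and 0.08 in P4, 0.43 and 0.15 in P5, and -0.40 and -0.10 in MEC.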

How the results depend on the processing

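No paired analysis was possible because each group had 1 array and the labels give no replicate numbers shared across groups. Leaving out 1 array in turn gave 0 to 22 collagen genes called in P4 minus P5, 0 to 18 in P4 minus MEC, 0 to 16 in P5 minus MEC and 0 to 3 in het minus WT over populations, with the 0 for each population comparison reached without any 1 of the 4 sorted arrays. The lone array of a population was then assumed to vary like the others. Replacing outlier local backgrounds gave 18, 17, 13 and 0 calls in the same order, where 3768, 4447, 1569 and 0 of all genes were called. With offset 0, het minus WT gave 1 call over populations (515 of all genes) and 8 genes past 2-fold in P5 (1737 of all genes). Median centring gave 24 calls in P5 minus MEC (2 higher, 22 lower) and 8 in het minus WT over populations, all lower, with 12, 2 and 11 genes past 2-fold in P4, P5 and MEC. Of all 25735 genes, 8415 and 8015 were called in those comparisons, and 9004, 2349 and 1917 were past 2-fold. Cy5 alone gave 21 calls in P4 minus MEC (4983 of all genes) and 1 gene past 2-fold in P4 (739 of all genes). The mean over probes gave 2 genes past 2-fold in P5 (567 of all genes) and 3 in MEC (526 of all genes). The P4 and P5 arrays alone gave 3 calls between genotypes, all higher in het, where 800 of all genes were called. Dropping the genotype term left 7 calls in P4 minus MEC, where 663 of all genes were called. Among the signs that turned were those of Col9a3 in het minus WT in P4 (-0.0091 from the scanner's ratios and from the authors' table), Col3a1 (-0.65) and Col4a4 (-0.38) there under median centring, and Col4a4 in P5 minus MEC (-0.95, adjusted p = 0.014, limma, median centring). Other values, neither called nor past 2-fold with loess, changed sign too, such as het minus WT in P4 of Col14a1 (lowest -0.92), Col7a1 (-1.37) and types I and V, and P4 minus MEC of Col4a1 (-0.44). The cause of these sign changes was not tested. Under median centring the median of all genes was -0.18 in the averaged genotype comparison and -0.31 in P5 minus MEC.

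With 1 array per group, no spread between animals is known, and a dim probe's ratio is drawn toward 0. Slide position with genotype, and slide with population in comparisons with MEC, cannot be told apart.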

Other observations

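Probes not used by the rule add values for a few collagen genes. The second probe of Col4a4 read 0.17 on WT P4, 1.55 on het P4, 0.52 on WT P5, 1.54 on het P5, 0.40 on WT MEC and 1.13 on het MEC, so the het array was higher in each population, as on the probe used. With outlier backgrounds replaced, het minus WT on this second probe was 1.05 (P4), 0.77 (P5) and 0.12 (MEC). The second probe of Col6a2 gave P4 minus P5 of 1.38 and P5 minus MEC of -1.44, farther from 0 than the probe used. The second probe of Col13a1, well above background on 2 arrays, gave P4 minus MEC of -0.09, where the probe used gave -1.02.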
